A study of Mus musculus with 31 samples.

Results

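The interaction between a transgene for the rod factor Nrl and the loss of the nuclear receptor gene Rorb was examined in mouse retina at postnatal day 14 (P14). It was measured gene by gene as a difference of differences over 4 groups of mice: the transgene difference on the Rorb-/- background minus the transgene difference on the +/+ background. These 4 groups hold 16 of the 31 arrays of the study. The other arrays are of postnatal day 28 (P28) mice. Each group has 4 mice, and each array was hybridised with total RNA from both retinas of 1 mouse. The groups were wild-type mice (+/+), Rorb knockout mice (Rorb-/-), wild-type mice with the transgene (+/+;CrxpNrl) and knockout mice with the transgene (Rorb-/-;CrxpNrl). The last pair are called transgenic +/+ and transgenic Rorb-/- below. In CrxpNrl the promoter of Crx, which is active in photoreceptors and their precursors, drives Nrl. The labels give neither the deleted part of Rorb nor the strain or sex of the mice, nor the sequence of the transgene, so signal from the transgene and from the resident Nrl gene cannot be told apart. Whole retinas were measured, and fewer cells of a type and less RNA per cell cannot be told apart.

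Rods and cones arise from a shared precursor. Nrl, a leucine zipper transcription factor, directs that precursor to the rod fate and switches on genes of the rod phototransduction cascade, while cone genes are held down. Rorb, a nuclear receptor of the retinoid-related orphan family, acts upstream of Nrl in rod development, and retinas without it lack rods and make excess cone-like cells. Crx, a homeodomain factor, works with Nrl at many photoreceptor promoters. A positive interaction means that the transgenic Rorb-/- signal was higher than the 2 single differences added to the +/+ signal give, and a negative interaction that it was lower.

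Signals are log2 values made by RMA, with 1 probe set used per gene. Array medians of the 16 P14 mice lay between 5.85 and 5.89, and their correlations with each other between 0.97 and 0.995. The number of mice limits the precision. An end of the scale was marked for every gene with a P14 group mean above 12.62, which is 1.5 log2 below the lowest array maximum, or below 3.98, the lowest lower quartile. Near either end a difference can be compressed. Differences are given as log2 ± SE from limma, with Benjamini-Hochberg adjusted p over 18193 genes. A gene passed the test at adjusted p under 0.05. Standard deviations (SD) and ranges are over 4 mice.

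Rorb, the targeted gene, was lower in every Rorb-/- mouse than in every +/+ mouse. Its signal was 10.85, 11.03, 11.10 and 10.88 in +/+ and 9.88, 9.86, 9.95 and 9.58 in Rorb-/-. It was 11.08, 10.89, 10.23 and 10.47 in transgenic +/+ and 9.31, 9.63, 9.04 and 8.48 in transgenic Rorb-/-. The interaction for Rorb was -0.40 ± 0.27 (adjusted p = 0.69), with a 95% interval from -0.95 to 0.16. Within Rorb-/- the transgenic mice were lower by -0.70 ± 0.19 (adjusted p = 0.0259), a call lost without any 1 of 5 mice, namely Rorb-/- replicate 1, 2 or 3 and transgenic Rorb-/- replicate 3 or 4 (adjusted p from 0.0639 to 0.16). Whether the probe set lies in the deleted part of the gene is not known, so the signal left in Rorb-/- is not read as intact message.

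Nrl, the transgene's product, stood at the ceiling in both +/+ groups: 13.32, 13.33, 13.31 and 13.31 in +/+, and 13.33, 13.26, 12.89 and 13.35 in transgenic +/+. In Rorb-/- it was 8.78, 8.84, 10.55 and 10.54, and in transgenic Rorb-/- 11.90, 11.33, 11.29 and 12.28. All transgenic Rorb-/- mice were thus above all Rorb-/- mice and below all +/+ mice. The transgene difference was 2.02 ± 0.40 in Rorb-/- (adjusted p = 0.00135, 4.06-fold) and -0.11 ± 0.40 in +/+ (adjusted p = 0.987). The interaction of 2.13 ± 0.57 missed the threshold (adjusted p = 0.0534), and passed it without Rorb-/- replicate 3 (0.0179) or replicate 4 (0.0237). With the 16 P14 arrays alone it was 0.0247. Of 27 alternatives run, these included, the Nrl interaction passed in 6. With +/+ at the ceiling, no absence of a rise there is read from these values.

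Across all genes, 72 had a positive interaction (0.396% of 18193) and 196 a negative one (1.08%). With a change of at least 2-fold also required, 26 were positive (0.143%) and 68 negative (0.374%). The median over all genes was 0.01. Of the 26 positive genes, 2 touched the ceiling and 4 the floor. Of the 68 negative genes, 1 touched the ceiling and 9 the floor, so 20 and 58 genes lay clear of both ends. Over all 18193 genes, 86 touched the ceiling and 3776 the floor. The transgene difference passed the test for 964 genes in Rorb-/- (5.3%) and for 23 genes in +/+ (0.126%). Rorb-/- differed from +/+ in 5445 genes without the transgene (29.9%) and in 5471 with it (30.1%).

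The called genes had a common shape. For the 26 positive genes the median transgene difference was 1.5 in Rorb-/- and -0.01 in +/+. Their median difference between Rorb-/- and +/+ was -2.09 without the transgene and -0.49 with it. Rorb-/- was the lowest of the 4 groups for 21 of them, and transgenic Rorb-/- the highest for 8. For the 68 negative genes the median transgene difference was -1.56 in Rorb-/- and -0.21 in +/+, and the median Rorb difference was 1.57 without the transgene and 0.16 with it. Rorb-/- was the highest group for 65 of them, and transgenic Rorb-/- the lowest for 22. The mean of transgenic Rorb-/- lay nearer to +/+ than that of Rorb-/- did for 19 of the 26 positive and 60 of the 68 negative genes. With the transgene, Rorb-/- still differed from +/+ past the test for 21 of the 26 and 42 of the 68. These counts are parts of the contrast that selected the genes and describe its form only.

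**Figure D1:**
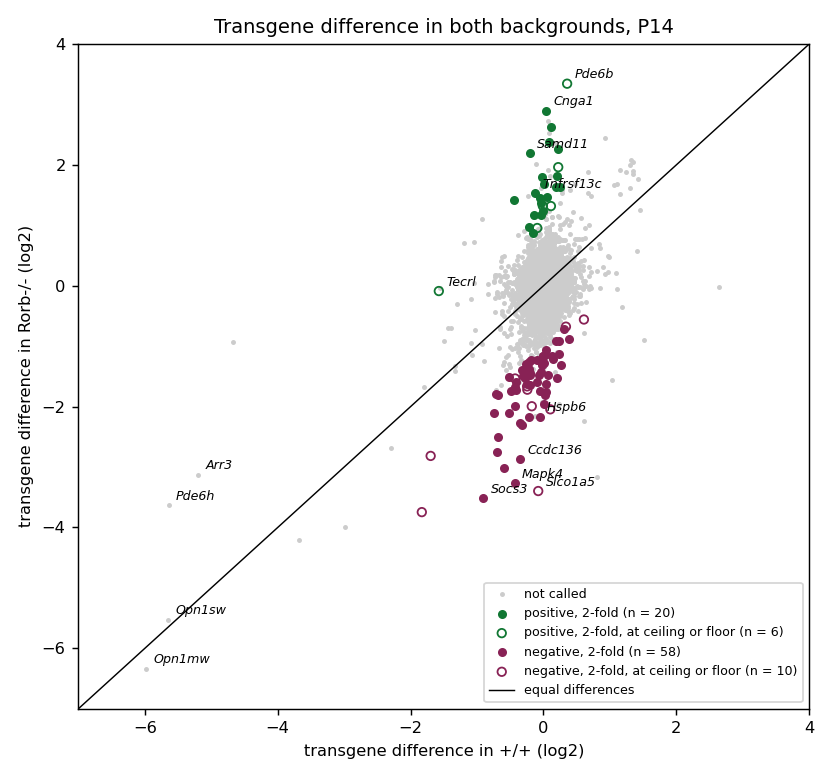
Each point is 1 gene, with the transgene difference in +/+ on the x axis and in Rorb-/- on the y axis, both as log2 differences of group means at P14. The line marks equal differences, green points the 26 positive and purple points the 68 negative genes of at least 2-fold, and open circles those at an end of the scale. Called genes spread along the y axis with x values mostly near 0, while Opn1sw and Opn1mw lie close to the line at about -5.65 and -5.98 on the x axis.

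Rod phototransduction genes led the positive interactions. Cnga1 and Cngb1, the subunits of the rod cyclic nucleotide-gated channel, Slc24a1, the rod sodium, calcium and potassium exchanger, and Pde6b, the beta subunit of rod phosphodiesterase, were low in Rorb-/-, higher in transgenic Rorb-/- and highest in the +/+ groups. The upstream windows of 3 of these genes are shown with that of Samd11, a photoreceptor gene of the same pattern, and with that of Guca1a, a phototransduction gene that went the other way. The window of Slc24a1, not printed, holds none of the motifs marked here, nor does that of Nrl. Each window is the 250 bases before the transcription start, 5′ to 3′, from RefSeq on build GRCm38.p6. Capitals mark TGCTGA (core of the Nrl response element), TAATCC (Crx core) and AGGTCA (core of the Ror element) on either strand, and no marked motifs overlap.

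Cnga1, chr5:72642753-72643002, minus strand: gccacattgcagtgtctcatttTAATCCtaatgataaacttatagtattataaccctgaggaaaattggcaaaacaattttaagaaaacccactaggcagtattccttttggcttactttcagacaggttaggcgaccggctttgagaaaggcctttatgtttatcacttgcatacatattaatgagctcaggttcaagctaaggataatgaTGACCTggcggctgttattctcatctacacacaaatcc
Cngb1, chr8:95306586-95306835, minus strand: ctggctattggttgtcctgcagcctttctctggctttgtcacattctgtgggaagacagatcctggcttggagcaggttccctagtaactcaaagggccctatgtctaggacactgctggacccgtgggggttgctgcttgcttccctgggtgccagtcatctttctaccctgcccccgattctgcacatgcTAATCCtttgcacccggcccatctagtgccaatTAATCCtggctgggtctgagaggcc
Samd11, chr4:156255343-156255592, minus strand: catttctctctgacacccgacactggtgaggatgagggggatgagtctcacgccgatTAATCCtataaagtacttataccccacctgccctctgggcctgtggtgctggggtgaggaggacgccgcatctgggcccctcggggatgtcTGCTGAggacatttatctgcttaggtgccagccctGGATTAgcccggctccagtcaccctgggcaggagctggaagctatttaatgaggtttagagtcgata
Pde6b, chr5:108388123-108388372, plus strand: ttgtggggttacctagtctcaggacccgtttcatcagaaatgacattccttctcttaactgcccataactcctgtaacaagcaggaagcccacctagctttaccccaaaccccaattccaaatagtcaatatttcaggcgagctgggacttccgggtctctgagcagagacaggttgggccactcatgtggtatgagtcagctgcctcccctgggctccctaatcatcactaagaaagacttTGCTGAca
Guca1a, chr17:47400607-47400856, minus strand: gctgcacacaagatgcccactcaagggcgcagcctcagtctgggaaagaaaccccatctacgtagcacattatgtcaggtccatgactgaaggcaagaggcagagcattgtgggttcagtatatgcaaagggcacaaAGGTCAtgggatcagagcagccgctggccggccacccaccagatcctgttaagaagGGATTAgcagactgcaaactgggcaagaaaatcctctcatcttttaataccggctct

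Cngb1 and Samd11 each held 2 TAATCC matches, Cnga1 and Guca1a 1 TAATCC and 1 AGGTCA match each, and Samd11 and Pde6b 1 TGCTGA match each. Over all 32851 RefSeq windows of this length, TGCTGA was found in 16.1%, TAATCC in 6.25% and AGGTCA in 14%. Windows were found for 20 of the 26 positive genes (21 windows) and for 50 of the 68 negative genes (67 windows). Among the 21 windows of positive genes the shares were 14.3%, 19% and 9.52% in that order of motifs (3, 4 and 2 windows). Among the 67 windows of negative genes they were 7.46%, 7.46% and 8.96% (5, 5 and 6 windows). Windows rather than genes were counted, and a gene can have several that overlap, as does Ccdc136. A match describes these letters only.

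The Cnga1 signal was 11.98, 11.95, 12 and 11.91 in +/+ and 12.06, 11.91, 11.97 and 12.04 in transgenic +/+. It was 6.70, 6.84, 8.69 and 8.88 in Rorb-/- and 10.96, 10.54, 10.44 and 10.77 in transgenic Rorb-/-. The Rorb-/- mice fell into a lower and a higher pair, neither of which reached the transgenic Rorb-/- mice. The interaction was 2.86 ± 0.62 (adjusted p = 0.0102), a 7.26-fold excess of the transgene difference in Rorb-/- over that in +/+. Without the transgene, Rorb-/- lay -4.18 ± 0.44 from +/+, and with it -1.32 ± 0.44. The +/+ means of 11.96 and 12 were below the limit set for the ceiling.

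Slc24a1 was 11.80, 12.05, 12.11 and 12.04 in +/+, 12.14, 12.07, 12.11 and 12.12 in transgenic +/+, 7.03, 7.62, 8.45 and 8.69 in Rorb-/-, and 11.02, 10.21, 10.16 and 10.92 in transgenic Rorb-/-. Its interaction was 2.52 ± 0.53 (adjusted p = 0.00769). For Cngb1 the Rorb-/- values of 6.73, 7.56, 8.35 and 8.38 and the transgenic Rorb-/- values of 10.39, 9.87, 9.81 and 10.45 stood against 11.04 to 11.29 in +/+ and 11.16 to 11.40 in transgenic +/+. The Cngb1 interaction was 2.30 ± 0.47 (adjusted p = 0.00603). In both genes the groups kept the order Rorb-/-, transgenic Rorb-/-, +/+ with no overlap among these 3.

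Pde6b had the largest positive interaction among genes that passed, at 2.99 ± 0.76 (adjusted p = 0.0372), with +/+ (12.67, 12.74, 12.77 and 13.22) and transgenic +/+ (13.24, 13.23, 13.14 and 13.22) at the ceiling. Its Rorb-/- values were 6.95, 6.89, 8.69 and 9.86, and its transgenic Rorb-/- values 12.12, 11.15, 10.39 and 12.10. The transgene difference in Rorb-/- was 3.34 ± 0.54 (10.1-fold). The interaction call was kept only without Rorb-/- replicate 3, Rorb-/- replicate 4 or transgenic Rorb-/- replicate 3, and was lost without any of the other 13 mice (adjusted p from 0.0513 to 0.113). Gnat1, the alpha subunit of rod transducin, was also at the ceiling in +/+ (13.79 to 13.87) and spread from 8.10 to 11.85 in Rorb-/-, where its highest mouse overlapped the lowest of transgenic Rorb-/- (11.80 to 13.33). Its interaction of 2.66 ± 0.71 did not pass (adjusted p = 0.0574) but did without Rorb-/- replicate 3 (0.0188), Rorb-/- replicate 4 (0.00287) or transgenic Rorb-/- replicate 2 (0.0356). Of 27 alternatives run, these included, the Gnat1 interaction passed in 6.

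**Figure D2:**
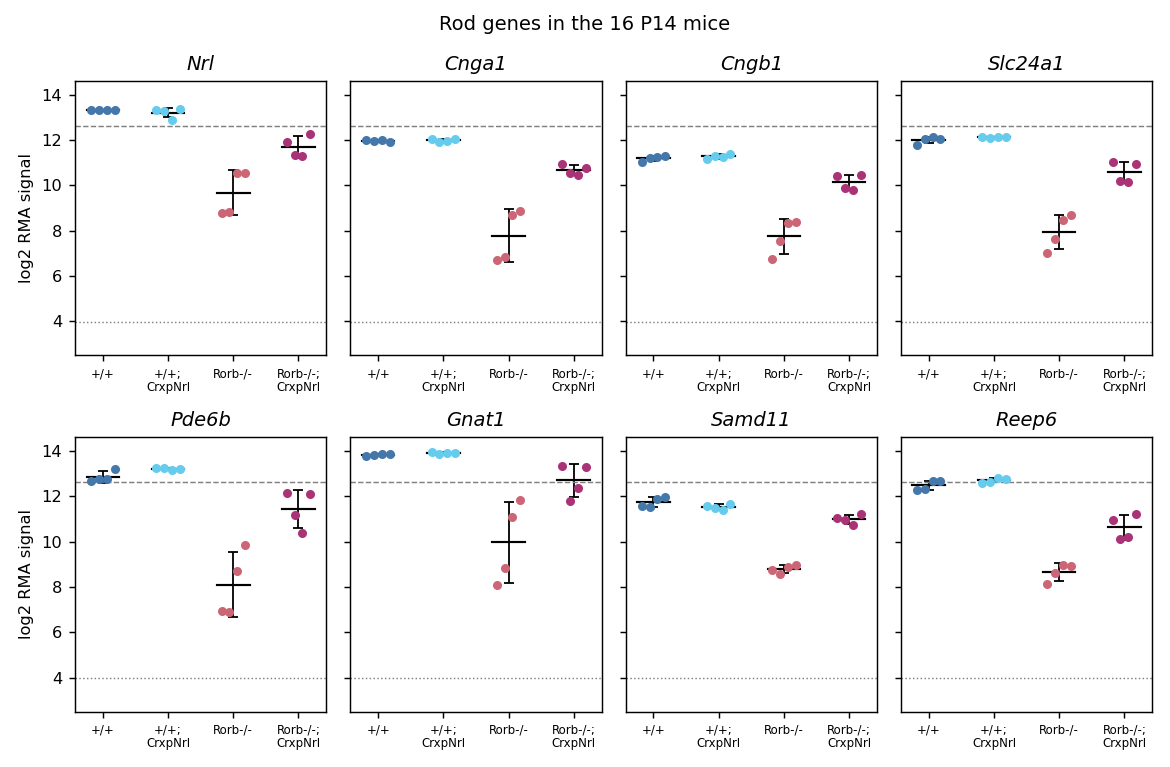
Log2 RMA signal of 8 rod genes in the 16 P14 mice by group, with 1 point per mouse, bars for the mean ± SD, a dashed line at the ceiling limit of 12.62 and a dotted line at the floor limit of 3.98. Both +/+ groups are tight near the top, the Rorb-/- mice are low and spread, as Nrl from 8.78 to 10.55, and the transgenic Rorb-/- mice lie between.

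Of 18 rod phototransduction genes measured, 4 had a positive and 1 a negative interaction, and 13 did not pass. Their median interaction was 0.30, against 0.01 over all genes. Without 1 mouse the positive count lay between 3 and 5. Of the 18, 9 had a group mean at the ceiling, and the median over the other 9 was 0.05. The arrestin gene Sag (0.30 ± 0.24) and Rcvrn, which encodes the calcium sensor recoverin (0.36 ± 0.38), were such genes. The catalytic subunit gene Pde6a, clear of the ceiling, gave 1.72 ± 0.57 (adjusted p = 0.175). The photoreceptor kinase gene Grk1 gave -0.91 ± 0.63, with a 95% interval from -2.20 to 0.38. The mean level of this list was 9.437 and 9.492 in Rorb-/- replicates 1 and 2 but 9.918 and 10.11 in replicates 3 and 4, and 11.07 and 10.8 in transgenic Rorb-/- replicates 1 and 4 but 10.37 and 10.34 in replicates 2 and 3.

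Guca1a was the phototransduction gene with a negative interaction. It encodes the guanylate cyclase activating protein GCAP1, which restores cyclic GMP after light and serves rods and cones. Its signal was 11.94, 11.86, 12.01 and 12.19 in +/+, 12.02, 11.77, 12.20 and 12.42 in transgenic +/+, 13.43, 13.20, 12.92 and 13.04 in Rorb-/- and 11.85, 10.91, 10.82 and 10.83 in transgenic Rorb-/-. Rorb-/- was thus the highest group, at the ceiling, and transgenic Rorb-/- the lowest, with 3 of its mice below every mouse of both +/+ groups. The interaction was -2.15 ± 0.40 (adjusted p = 0.0021). With Rorb-/- at the ceiling its size is read as a lower bound.

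Among 16 measured rod-enriched genes outside phototransduction, 3 had a positive interaction and none a negative one in the limma fit. At an unadjusted p under 0.05 in that fit there were 9 and 0, against 1929 of all 18193 genes in either direction. Their median interaction was 1.10, and it was 1.08 over the 13 clear of the ceiling. Of the 16, 8 had a transgene difference above 0 that passed in Rorb-/-, against 0 in +/+. Over all 18193 genes these counts were 373 and 3. The positive count of 3 in this list became 5 without Rorb-/- replicate 4. Samd11 encodes a sterile alpha motif protein of photoreceptor nuclei. It was 11.57, 11.54, 11.89 and 11.96 in +/+, 8.75, 8.58, 8.87 and 8.98 in Rorb-/- and 11.04, 10.94, 10.74 and 11.21 in transgenic Rorb-/-, so here the Rorb-/- mice were close together. The Samd11 interaction was 2.40 ± 0.40 (adjusted p = 0.000663), and its Rorb difference went from -2.95 ± 0.29 without the transgene to -0.55 ± 0.29 with it (adjusted p = 0.16 for the latter). With the mean of its probe sets the interaction was 1.58. Susd3, a sushi domain gene, gave 1.81 ± 0.41 (adjusted p = 0.0151). Reep6, an endoplasmic reticulum gene of rods mutated in retinitis pigmentosa, gave 1.74 ± 0.41 (adjusted p = 0.0238), a call lost without +/+ replicate 3 or 4, Rorb-/- replicate 1 or transgenic Rorb-/- replicate 1 or 4 (adjusted p from 0.0502 to 0.0732). Reep6 was at the ceiling in transgenic +/+ (mean 12.70) and near it in +/+ (12.48), so a rise in +/+ could be compressed.

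Esrrb, an orphan nuclear receptor gene that supports rod survival, had 9.50 to 10.47 in +/+, 5.05 to 6.48 in Rorb-/- and 7.41 to 8.58 in transgenic Rorb-/-. Its interaction of 2.14 ± 0.57 did not pass (adjusted p = 0.054), and passed without +/+ replicate 1 (0.0408), Rorb-/- replicate 4 (0.0291) or transgenic Rorb-/- replicate 2 (0.0381). Its other probe sets gave 0.51 ± 0.20 and 1.03 ± 0.54, and the mean of all 3 gave 1.23 (adjusted p = 0.154). Of 27 alternatives run, those fits without 1 mouse included, Esrrb passed in 7, with an adjusted p down to 0.00618. The genes whose 16 P14 values followed those of Nrl most closely were Slc24a1 (Pearson r = 0.985), Cnga1 (0.985), Pde6a (0.983), Cngb1 (0.981) and Rp1 (0.981), given as a description of arrays that share the same group differences. Rp1, a microtubule protein gene of the photoreceptor outer segment, had an interaction of 1.32 ± 0.49 (adjusted p = 0.257). Aqp1, a water channel gene, and Kcnj14, a potassium channel gene, gave 1.65 ± 0.55 (adjusted p = 0.18) and 1.85 ± 0.56 (adjusted p = 0.115). Fscn2, which encodes a photoreceptor actin bundling protein, was also lower in Rorb-/-, by -3.04. The Fscn2 interaction was -0.34 ± 0.31, with a 95% interval from -0.97 to 0.29.

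Among 18 genes of outer segment structure and retinal disease, 1 interaction was positive (Cngb1 again) and 2 were negative. Without Rorb-/- replicate 4 the positive count was 2. Pcdh15, an Usher syndrome protocadherin gene, was 9.09 to 9.19 in +/+, 8.98 to 9.13 in transgenic +/+, 10.14 to 10.71 in Rorb-/- and 8.63 to 9.22 in transgenic Rorb-/-, with an interaction of -1.50 ± 0.26 (adjusted p = 0.00115). Bbs4, a gene of the ciliary Bardet-Biedl complex, was 10.40 to 10.60 in the other 3 groups and lower in all 4 transgenic Rorb-/- mice (10.12, 10.08, 10.13 and 10.12). The Bbs4 interaction was -0.41 ± 0.09 (adjusted p = 0.00841), and lay between -0.44 and -0.39 under all alternatives run. It no longer passed with the mean of its probe sets (adjusted p = 0.155) or without probe sets of shared sequence (0.512). Impg1, an interphotoreceptor matrix gene, gave 2.44 ± 0.66 (adjusted p = 0.0603). Prph2, which encodes the disc rim protein peripherin, had the highest estimate of this list and a wide error, 3.74 ± 1.82 (adjusted p = 0.467), with a 95% interval from 0.02 to 7.47.

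Outside the photoreceptor lists, the positive genes Plekha2, Ebpl, Ndrg1 and Cdr2 were also lowest in Rorb-/- and raised in transgenic Rorb-/-. Plekha2, a phosphoinositide-binding adaptor gene, was 8.77, 8.76, 8.91 and 8.88 in +/+, 6.37, 6.47, 6.82 and 7.10 in Rorb-/- and 8.86, 9.20, 8.73 and 9 in transgenic Rorb-/-. The transgenic Rorb-/- mice overlapped the +/+ mice, and the Rorb difference with the transgene was -0.11 ± 0.23 (adjusted p = 0.787). The Plekha2 interaction was 2.03 ± 0.32 (adjusted p = 0.000278). Ebpl, a gene related to the emopamil-binding sterol isomerase, had 11.95 to 12.13 in +/+, 9.75 to 10.18 in Rorb-/- and 11.52 to 11.74 in transgenic Rorb-/-, with an interaction of 1.67 ± 0.18 (adjusted p = 6.12e-07). Ndrg1, a differentiation and hypoxia response gene that stands in the horizontal cell list, gave 1.42 ± 0.16 (adjusted p = 8.31e-07), with Rorb-/- at 9.15 to 9.70 against 10.65 to 11.02 in transgenic Rorb-/-. It was the single member of 9 in that list to pass. Cdr2, a cerebellar degeneration antigen gene, gave 1.61 ± 0.41 (adjusted p = 0.0355), but passed in only 3 of 16 fits that left out 1 mouse: Rorb-/- replicate 4 and transgenic Rorb-/- replicates 2 and 3 (adjusted p up to 0.103 in the others).

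Of the 8 positive genes that were highest in transgenic Rorb-/-, 4 are described here. Tnfrsf13c, the receptor gene for the B cell survival factor BAFF, was 5.14, 4.95, 5.10 and 4.70 in +/+, 4.86, 4.74, 4.88 and 4.93 in transgenic +/+, 4.84, 4.65, 4.97 and 4.99 in Rorb-/- and 6.06, 6.60, 6.58 and 6.31 in transgenic Rorb-/-. No mouse of the other 3 groups reached the lowest transgenic Rorb-/- mouse. Its interaction was 1.65 ± 0.17 (adjusted p = 3.78e-07), with no difference between Rorb-/- and +/+ past the test (-0.11 ± 0.12, adjusted p = 0.548).

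Pax7, a paired homeobox gene of muscle stem cells and midbrain, lay at the floor in the other 3 groups (3.59 to 4.29) and at 5.35, 4.94, 5.43 and 5.42 in transgenic Rorb-/-. The Pax7 interaction was 1.21 ± 0.21 (adjusted p = 0.000904). Rag1, a recombinase gene of lymphocytes, was at the floor in both +/+ groups (3 to 3.35), at 4.09, 4.46, 4.49 and 4.67 in Rorb-/- and at 4.99, 5.98, 6.38 and 5.63 in transgenic Rorb-/-, with an interaction of 1.33 ± 0.26 (adjusted p = 0.00307). Shisa2, an inhibitor gene of Wnt and FGF signalling, was 6.96 to 7.75 in +/+, 6.70 to 7.01 in transgenic +/+, 6.28 to 6.44 in Rorb-/- and 7.31 to 8.39 in transgenic Rorb-/-. Shisa2 gave 1.86 ± 0.39 (adjusted p = 0.00734), the Rorb difference being -0.96 ± 0.27 without and 0.90 ± 0.27 with the transgene.

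Tyrobp, a signalling adaptor gene of microglia, had 6.31 to 6.56 in +/+, 6.15 to 6.49 in transgenic +/+, 7.07 to 7.59 in Rorb-/- and 7.60 to 8.43 in transgenic Rorb-/-. Its interaction was 0.87 ± 0.20 (adjusted p = 0.0197), and it was the single called gene among 18 of microglia and macrophages. The call was lost without +/+ replicate 2, Rorb-/- replicate 4, transgenic +/+ replicate 4 or transgenic Rorb-/- replicate 2 or 3 (adjusted p from 0.052 to 0.0628). The median interaction of that list was 0.30, and 17 of 18 estimates were above 0. Its mean level was 5.819 to 5.961 in +/+, 5.831 to 5.987 in transgenic +/+, 6.561 to 6.882 in Rorb-/- and 6.649 to 7.232 in transgenic Rorb-/-. Whether this bears on the Tnfrsf13c or Rag1 signals was not tested.

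Tecrl, an enoyl reductase-like gene, reached a positive interaction another way. It was 5.70, 6.15, 5.79 and 5.55 in +/+ and 4.40, 4.17, 4.32 and 4.00 in transgenic +/+, but at the floor in Rorb-/- (3.38 to 3.57) and transgenic Rorb-/- (3.25 to 3.48). The transgene difference was -1.57 ± 0.14 in +/+ and -0.09 ± 0.14 in Rorb-/-, where no further fall could be measured. The interaction of 1.49 ± 0.20 (adjusted p = 3.91e-05) thus rests on a group at the floor.

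Most negative genes were highest in Rorb-/-, with transgenic Rorb-/- nearer to +/+. Ccdc136, a coiled-coil gene from the cone list, was 9.19, 9.42, 9.57 and 9.58 in +/+, 8.91, 9.27, 9.04 and 9.14 in transgenic +/+, 12.13, 11.77, 11.75 and 11.86 in Rorb-/- and 9, 9.05, 9.09 and 8.87 in transgenic Rorb-/-. The 4 Rorb-/- mice stood apart from all others, and the transgenic Rorb-/- mice overlapped the transgenic +/+ mice. Its interaction was -2.52 ± 0.13 (adjusted p = 2.97e-13), with a Rorb difference of 2.44 ± 0.09 without and -0.09 ± 0.09 with the transgene.

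Mapk4, an atypical MAP kinase gene, had the largest negative interaction clear of both ends of the scale, -2.84 ± 0.28 (adjusted p = 1.24e-07). It was 5.12, 5.85, 5.76 and 5.37 in +/+, 4.82, 5.28, 5.31 and 4.95 in transgenic +/+, 8.32, 8.18, 8.50 and 8.45 in Rorb-/- and 5.16, 5.58, 5.09 and 4.56 in transgenic Rorb-/-. The transgenic groups overlapped, and their Rorb difference was 0.00 ± 0.20. Slco1a5, an organic anion transporter gene, was at or near the floor in 3 groups (3.71 to 4.17) and at 7.44, 7.78, 6.85 and 7.60 in Rorb-/-. The Slco1a5 interaction of -3.32 ± 0.20 (adjusted p = 3.17e-12) has an uncertain size, since both +/+ group means were below the limit of 3.98, and it was -1.84 with the mean of its probe sets. Akr1b8, an aldo-keto reductase gene, was 7.09 to 7.43 in Rorb-/- and 4.89 to 5.49 elsewhere, with an interaction of -1.92 ± 0.21 (adjusted p = 6.07e-07).

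Socs3, a feedback inhibitor gene of cytokine signalling, and Chrnb4, a nicotinic acetylcholine receptor subunit gene, stayed higher in transgenic Rorb-/- than in transgenic +/+. Socs3 was 5.61 to 5.83 in +/+, 4.40 to 5.55 in transgenic +/+, 9.03 to 10 in Rorb-/- and 5.48 to 6.5 in transgenic Rorb-/-, with an interaction of -2.61 ± 0.34 (adjusted p = 1.93e-05). Socs3 was the called gene among 17 of stress and gliosis, whose median interaction was 0.00. Chrnb4 was 5.20 to 5.69, 4.39 to 5.00, 8.97 to 9.16 and 5.72 to 6.84 in the same order, with an interaction of -2.05 ± 0.27 (adjusted p = 1.93e-05). Socs3 in transgenic Rorb-/- overlapped +/+. Transgenic Rorb-/- exceeded transgenic +/+ by 1.17 ± 0.24 for Socs3 and by 1.60 ± 0.19 for Chrnb4.

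Gulo, which encodes the last enzyme of vitamin C synthesis, Ppm1j, a protein phosphatase gene, and Epha8, an ephrin receptor gene, went below the +/+ groups. Gulo was 6.95, 7.18, 7.51 and 7.63 in +/+, 9.11, 8.63, 8.86 and 9.03 in Rorb-/- and 5.72, 6.19, 6.14 and 5.50 in transgenic Rorb-/-. In Gulo all 4 transgenic Rorb-/- mice were thus below all +/+ mice. The interactions were -2.43 ± 0.27 for Gulo (adjusted p = 8.31e-07), -1.99 ± 0.17 for Ppm1j (adjusted p = 2.39e-08) and -1.96 ± 0.24 for Epha8 (adjusted p = 4.08e-06). With the transgene, Rorb-/- lay at -0.84 ± 0.19, -0.51 ± 0.12 and -0.76 ± 0.17 from +/+ in that order.

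Hspb6, Hk2 and Slc16a1 were lowest in transgenic Rorb-/-, and none had a higher level in Rorb-/- than in +/+ that passed the test. Hspb6, a small heat shock protein gene, was 10.30, 10.51, 10.62 and 10.52 in +/+, 10.37, 10.38, 10.57 and 10.41 in transgenic +/+, 10.59, 10.76, 10.38 and 10.85 in Rorb-/- and 8.91, 8.37, 8.29 and 8.34 in transgenic Rorb-/-. The first 3 groups overlapped, and the transgenic Rorb-/- mice lay below all of them. Hspb6 differed by 0.16 ± 0.14 between Rorb-/- and +/+ (adjusted p = 0.459), by -0.05 ± 0.14 with the transgene in +/+ (adjusted p = 0.976) and by -2.17 ± 0.14 with the transgene in Rorb-/-. Its interaction was -2.11 ± 0.20 (adjusted p = 7.14e-08).

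Hk2, the hexokinase gene that opens aerobic glycolysis in photoreceptors, was 9.82, 9.75, 10.78 and 10.66 in +/+, 9.58, 9.98, 10.37 and 10.18 in transgenic +/+, 10.52, 10.35, 10.35 and 10.62 in Rorb-/- and 8.72, 7.94, 7.92 and 8.60 in transgenic Rorb-/-. Again the last group alone stood apart, with an interaction of -1.94 ± 0.45 (adjusted p = 0.02). Slc16a1, a lactate transporter gene, was 11.69 to 11.89 in +/+, 11.10 to 11.39 in Rorb-/- and 10.29 to 10.87 in transgenic Rorb-/-, with an interaction of -0.68 ± 0.17 (adjusted p = 0.0308). These were the 2 called genes among 17 of aerobic glycolysis, whose median interaction was -0.17. The enzyme genes Ldha (-0.05 ± 0.16) and Pkm (-0.17 ± 0.12) did not pass. The Hk2 call was lost without +/+ replicate 1 or 2, transgenic +/+ replicate 3 or transgenic Rorb-/- replicate 2 or 3 (adjusted p from 0.0518 to 0.0626). The Slc16a1 call was lost without replicate 2 or 3 of +/+, replicate 2 or 4 of Rorb-/-, replicate 3 or 4 of transgenic +/+, or replicate 2 or 3 of transgenic Rorb-/- (0.0635 to 0.0879). Of 27 alternatives run, these included, it was lost in 10, with an adjusted p up to 0.147. A dimmer Slc16a1 probe set gave -0.24 ± 0.15 (unadjusted p = 0.124 in a limma fit of every probe set). The list count ran from 0 to 3, the latter without transgenic Rorb-/- replicate 1.

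**Figure D3:**
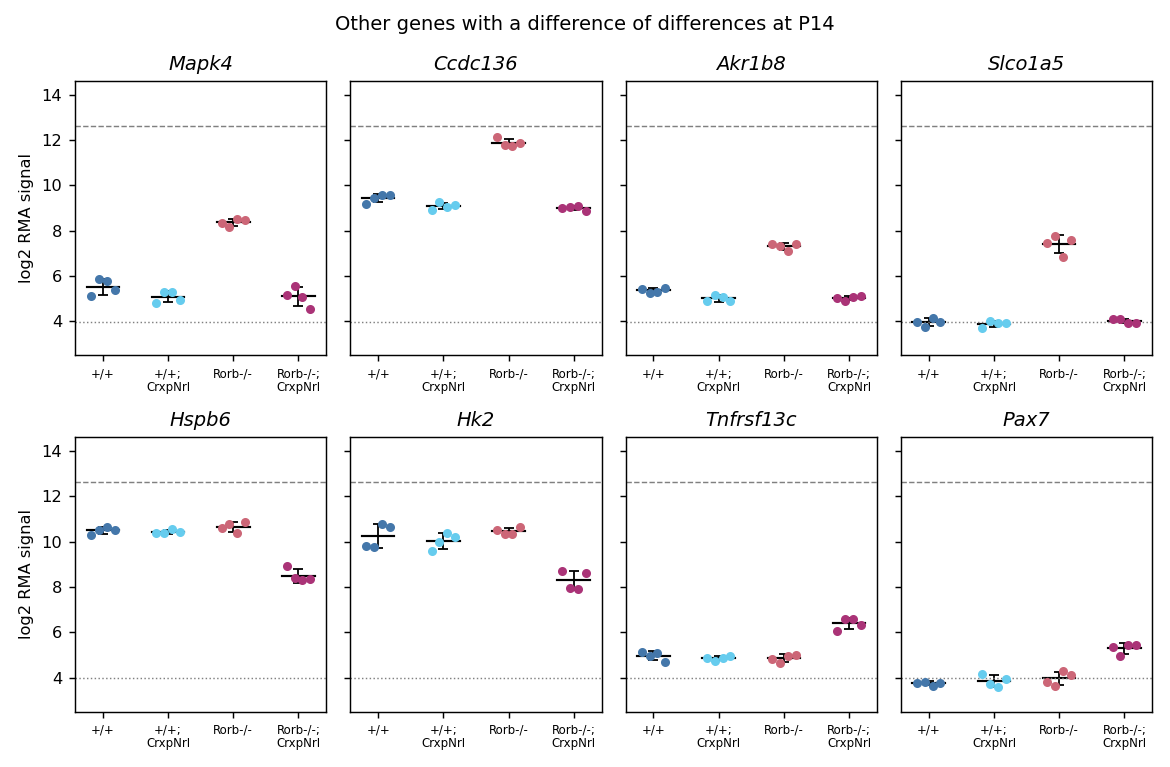
Log2 RMA signal of 8 called genes in the 16 P14 mice by group, with 1 point per mouse, bars for the mean ± SD and lines at the ceiling limit of 12.62 (dashed) and floor limit of 3.98 (dotted). Mapk4, Ccdc136, Akr1b8 and Slco1a5 are high in Rorb-/- alone. Hspb6 and Hk2 are low, and Tnfrsf13c and Pax7 high, in transgenic Rorb-/- alone.

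Cabp5, a calcium-binding protein gene of bipolar cells, was the single called gene among 18 of the bipolar list, at -1.66 ± 0.17 (adjusted p = 4.25e-07). It was 10.26 to 10.57 in +/+, 10.19 to 10.58 in transgenic +/+, 11.67 to 12.16 in Rorb-/- and 10.04 to 10.43 in transgenic Rorb-/-. The median interaction of that list was 0.11, and Trpm1 and Prkca, a channel gene of ON bipolar cells and a kinase gene of rod bipolar cells, gave 0.06 ± 0.29 and 0.12 ± 0.16. Clca1, a chloride channel accessory gene from the cone list, fell with the transgene on both backgrounds, by 3.75 ± 0.22 in Rorb-/- and by 1.83 ± 0.22 in +/+, where it reached the floor. Its interaction of -1.92 ± 0.31 (adjusted p = 4e-04) rests on that floor, and was -1.01 with the mean of its probe sets, the other of which gave -0.10 ± 0.16 near the floor. Plcz1, a sperm phospholipase gene, and Crp, the C-reactive protein gene, were at the floor in 3 groups and raised in Rorb-/- (4.61 to 7.14 and 5.16 to 5.81), with interactions of -1.82 ± 0.40 (adjusted p = 0.013) and -1.42 ± 0.25 (adjusted p = 0.00105). For Plcz1 the call was lost in 2 of 26 alternatives run, with an adjusted p up to 0.0755. The mean of its probe sets was among them (adjusted p = 0.0551).

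The transgene lowered both cone opsin genes on both backgrounds at P14. With the probe set used for each, their interaction did not pass the test, but another Opn1sw probe set gave a negative one (below). Of 17 cone genes measured, the transgene difference was negative and passed the test for 15 in Rorb-/- and for 9 in +/+. The interaction was negative for 4 (Ccdc136, Clca1, Gnb3 and Rxrg), positive for 0 in the limma fit and not passed for 13, with a median of -0.53. At an unadjusted limma p under 0.05, 9 of the 17 were negative and 2 positive. Over all 18193 genes 1929 had such a p in either direction. The mean level of this list was 8.729 to 8.821 in +/+, 10.5 to 10.79 in Rorb-/- and 7.821 to 8.352 in transgenic Rorb-/-. In transgenic +/+ it was 6.276, 6.323 and 6.281 in replicates 1, 3 and 4 but 7.353 in replicate 2. Without that mouse the positive count was 2 in place of 0.

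Opn1mw, the medium-wavelength cone opsin gene, was 11.19, 10.90, 11.15 and 11.08 in +/+ and 10.90, 10.91, 10.41 and 11.40 in Rorb-/-. It was 5.04, 6.18, 4.54 and 4.64 in transgenic +/+ and 5.14, 4.95, 3.92 and 4.27 in transgenic Rorb-/-. The transgene difference was -5.98 ± 0.25 in +/+ and -6.33 ± 0.25 in Rorb-/-, the groups with and without the transgene being far apart on both backgrounds. The Opn1mw interaction was -0.35 ± 0.36 (adjusted p = 0.838), with a 95% interval from -1.09 to 0.38.

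Opn1sw, the short-wavelength opsin gene, fell by 5.65 ± 0.56 in +/+ and by 5.53 ± 0.56 in Rorb-/-, with an interaction of 0.13 ± 0.79 (adjusted p = 0.984) and an interval from -1.49 to 1.75. Transgenic +/+ replicate 2 had 8.96 against 4.80, 5.18 and 4.94 in the others, and without it the interaction was 1.12. Rorb-/- was at the ceiling (13.13 to 13.66). A dimmer Opn1sw probe set gave -2.33 ± 0.33 (unadjusted p = 9.6e-08 in a limma fit of every probe set), so the Opn1sw probe sets disagreed. Its means were 6.85 in +/+, 4.56 in transgenic +/+, 9.35 in Rorb-/- and 4.73 in transgenic Rorb-/-. The cone arrestin gene Arr3 had 3.51, 7.08, 4.49 and 4.02 in transgenic +/+ and 9.69, 9.42, 9.30 and 9 in transgenic Rorb-/-, against 9.74 to 10.16 in +/+ and 12.32 to 12.63 in Rorb-/-. Its interaction of 2.06 ± 0.61 did not pass (adjusted p = 0.107), and was 2.83 without transgenic +/+ replicate 2 (adjusted p = 2.2e-05). The Arr3 probe sets disagreed: the others gave 1.42 ± 0.60 and -1.51 ± 0.31. Pde6h, the cone phosphodiesterase gamma subunit gene, gave 2.02 ± 0.69 (adjusted p = 0.2), and Gnat2, the cone transducin alpha subunit gene, -1.01 ± 0.27 (adjusted p = 0.0598). Cngb3, a cone channel subunit gene, gave -0.01 ± 0.32, with an interval from -0.66 to 0.64.

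Gnb3, the beta subunit gene of cone transducin, was 11.04, 11.12, 11.09 and 11.15 in +/+, 10.68, 10.81, 10.84 and 10.69 in transgenic +/+, 13.13, 12.94, 12.81 and 12.83 in Rorb-/- and 11.68, 11.79, 11.73 and 11.57 in transgenic Rorb-/-. None of the 4 groups overlapped. The interaction was -0.89 ± 0.11 (adjusted p = 4.08e-06), a lower bound in size with Rorb-/- at the ceiling. Rxrg, the retinoid X receptor gene of developing cones, gave -0.76 ± 0.19 (adjusted p = 0.0285), with 8.40 to 9 in Rorb-/- and 7.45 to 7.99 in transgenic Rorb-/-. The Rxrg call was lost in 9 of 16 fits that left out 1 mouse, namely replicate 1 or 2 of +/+, of Rorb-/- or of transgenic +/+, or replicate 1, 3 or 4 of transgenic Rorb-/- (adjusted p from 0.0502 to 0.0879).

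**Figure D4:**
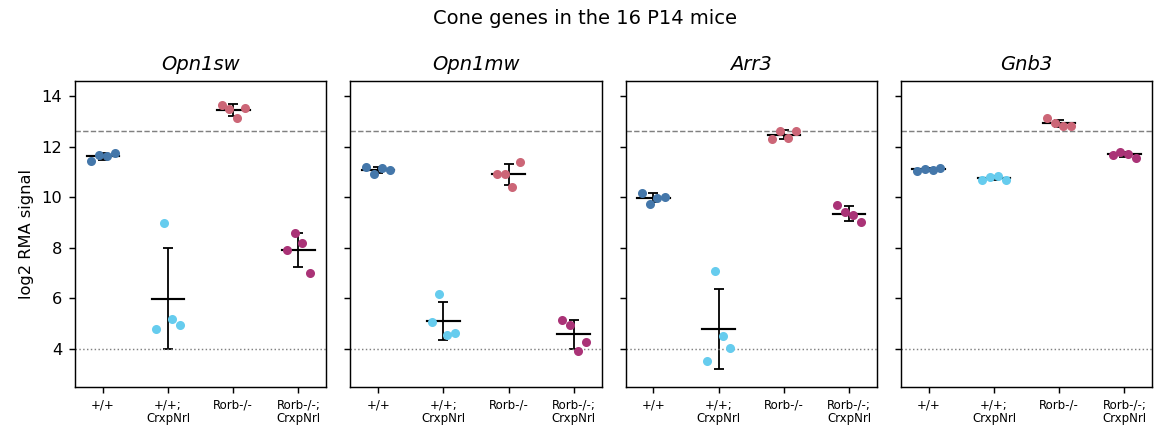
Log2 RMA signal of 4 cone genes in the 16 P14 mice by group, with 1 point per mouse, bars for the mean ± SD and lines at the ceiling limit of 12.62 (dashed) and floor limit of 3.98 (dotted). Opn1mw drops about equally with the transgene on both backgrounds, toward the floor limit, to means of 5.10 in transgenic +/+ and 4.57 in transgenic Rorb-/-. Transgenic +/+ replicate 2 stands above its group for Opn1sw at 8.96 and Arr3 at 7.08, and Gnb3 drops further in Rorb-/- than in +/+.

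Of 17 photoreceptor transcription factor genes, 3 had a negative interaction (Rxrg, Six6 and Rax) and 0 a positive one in the limma fit. At an unadjusted p under 0.05 in that fit, 6 were negative and 3 positive. The median was -0.30. Six6 and Rax are homeobox genes of the early eye field. Six6 was 8.70 to 9.09 in +/+, 8.75 to 9.02 in transgenic +/+, 10.22 to 10.53 in Rorb-/- and 9.58 to 9.90 in transgenic Rorb-/-, with an interaction of -0.56 ± 0.14 (adjusted p = 0.0286). Rax, which overlapped between transgenic Rorb-/- (9.90 to 10.08) and +/+ (9.46 to 9.95), gave -0.55 ± 0.13 (adjusted p = 0.0297). Crx itself was 11.84 to 12.32 in all 16 mice and gave -0.11 ± 0.23 (adjusted p = 0.94), with an interval from -0.59 to 0.36. Thrb, the thyroid hormone receptor gene of cone fate, gave -0.56 ± 0.27 (adjusted p = 0.453).

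The 3 transcription factor calls changed with single mice. Without +/+ replicate 2, Rorb-/- replicate 1 or transgenic Rorb-/- replicate 4 none of the 3 passed, and without +/+ replicate 1, transgenic +/+ replicate 1 or transgenic +/+ replicate 3 only 1 did. The adjusted p without 1 mouse reached 0.0865 for Six6 and 0.0847 for Rax. The positive count was 2 without Rorb-/- replicate 4 and 1 without +/+ replicate 1, Rorb-/- replicate 3 or transgenic Rorb-/- replicate 2.

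In the remaining lists no gene passed the limma test in either direction. Among 19 interferon-stimulated genes all estimates were below 0, with a median of -0.75, and 8 had an unadjusted p under 0.05, as had 1929 of all 18193 genes in either direction. Rtp4 and Ifit1, antiviral genes, gave -2.19 ± 0.70 (adjusted p = 0.156) and -2.03 ± 0.75 (adjusted p = 0.251), Ifit1 being at the floor in transgenic +/+. Rorb-/- mice differed widely on this list, with mean levels of 6.358, 7.665, 5.471 and 7.254, while +/+ mice had 5.177 to 5.444, transgenic +/+ 5.221 to 5.295 and transgenic Rorb-/- 5.48 to 6.375. Without Rorb-/- replicate 3, the lowest of its group, 6 of the 19 passed as negative, and without transgenic Rorb-/- replicate 2 it was 1.

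The ribbon synapse (20 measured, median -0.14), retinoid cycle (13, 0.36), amacrine (22, -0.02), ganglion cell (19, 0.16), Müller glia (20, -0.14), blood vessel (16, 0.07), red blood cell (5, -0.06), cell cycle (15, 0.09) and apoptosis (13, -0.03) lists had no call. At an unadjusted p under 0.05 they held 2, 2, 3, 1, 6, 0, 0, 4 and 0 genes in that order.

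Tissue next to the retina varied between mice. The pigment epithelium and melanocyte list (15 measured, median interaction 0.48, all 15 above 0) had mean levels of 7.206 to 7.539 in +/+, 6.572 to 7.441 in transgenic +/+, 5.583 to 5.977 in Rorb-/- and 5.769 to 6.384 in transgenic Rorb-/-. The lens list (14 measured, median 0.56) reached 11.27 in transgenic Rorb-/- replicate 4, against 6.109 to 9.159 in the other 15 mice. Neither list held a call, with 1 and 0 genes at an unadjusted p under 0.05. With both lists as covariates the positive and negative counts were 25 and 64, and without that mouse they were 21 and 64. With the covariates the calls for Pde6b, Hk2, Slc16a1, Rxrg, Six6 and Rax were lost (adjusted p from 0.0575 to 0.0728).

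At P28 the same contrast was measured in mice that share no array with the P14 groups, 15 in all with 3 in transgenic +/+. It gave 537 positive genes (2.95%) and 459 negative ones (2.52%), of which 42 (0.231%) and 131 (0.72%) were at least 2-fold. Of the 26 positive P14 genes, 3 were in the P28 set, which is 11.5% of the P14 and 7.14% of the P28 genes. Of the 68 negative P14 genes, 36 were, which is 52.9% and 27.5%. At any fold, 5 of the 26 and 53 of the 68 passed in the same direction at P28, and 0 of either passed in the opposite one. The median of the 26 went from 1.5 at P14 to 0.84 at P28, and that of the 68 from -1.33 to -1.09. Without P28 transgenic Rorb-/- replicate 1 the P28 counts were 75 and 208.

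At P28 the rod phototransduction list had 0 positive and 1 negative call in the limma fit and a median of -0.28, and the other rod-enriched list 1 of each and a median of 0.08. Cnga1 gave 1.95 ± 0.64 at P28 (adjusted p = 0.0708), Cngb1 1.29 ± 0.49 (0.123) and Pde6b 1.95 ± 0.79 (0.155), while Samd11 passed at 1.75 ± 0.42 (0.0125) and Guca1a was negative again at -1.55 ± 0.42 (0.0239). The P28 transgenic Rorb-/- mice fell into 2 pairs for these genes. Cnga1 was 10.86 and 10.93 in replicates 1 and 2 but 8.13 and 9 in replicates 3 and 4, against 7.57 to 8.39 in P28 Rorb-/-. Pde6b was 12.16 and 12 against 9.14 and 9.76 in the same pairs. The size at P28 differed among the negative genes. Ccdc136 gave -2.05 ± 0.14 (adjusted p = 7.64e-11), Slco1a5 -4.17 ± 0.20 (4.89e-14), Hspb6 -2.07 ± 0.21 (1.9e-07), Hk2 -2.33 ± 0.47 (0.00346) and Akr1b8 -2.48 ± 0.21 (1.78e-08). Cabp5 gave -0.63 ± 0.18 (0.0386) at P28 against -1.66 at P14, Ppm1j -0.78 ± 0.18 (0.00964) against -1.99, and Epha8 -0.97 ± 0.24 (0.0168) against -1.96. The difference between ages did not pass for any of these 8 genes.

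The difference between the ages was tested for every gene, and 13 passed (0.0715%). Among the 26 positive P14 genes 2 passed, and among the 68 negative ones 0. Tnfrsf13c, at 1.65 at P14, was 0.01 ± 0.18 at P28, where all 15 mice lay between 4.31 and 4.82, and its difference between ages was -1.64 ± 0.25 (adjusted p = 0.00325). Pax7 went from 1.21 to -0.38 ± 0.22, a difference of -1.58 ± 0.30 (adjusted p = 0.0322). The largest negative age differences among named genes, of Tph1, Myocd and Pik3ap1, belonged to genes with no call at P14. Tph1, which encodes tryptophan hydroxylase, gave -0.83 ± 0.32 at P14 and -3.71 ± 0.33 at P28. In P14 Rorb-/- and transgenic Rorb-/- it was 6.25 to 7.06 and 6.03 to 6.11, but at P28 7.14, 8.14, 7.47 and 8.51 against 4.65, 4.09, 4.12 and 4.06. The age count of 13 became 184 without P28 transgenic Rorb-/- replicate 1, 22 without P14 Rorb-/- replicate 3 and as low as 4 without P14 transgenic Rorb-/- replicate 3 or P28 transgenic +/+ replicate 1.

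**Figure D5:**
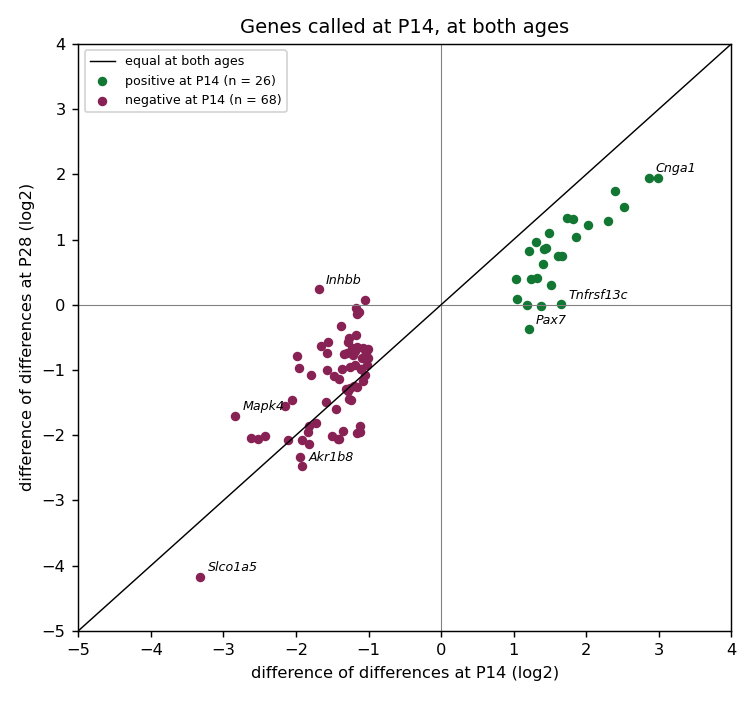
Each point is 1 of the 94 genes called at P14 with at least 2-fold, with the P14 difference of differences on the x axis and the P28 one on the y axis, both in log2. The line marks equal values, and no point is a test of its own. Slco1a5 is farthest out at -3.32 and -4.17, Cnga1 lies below the line at 2.86 and 1.95, and Tnfrsf13c and Pax7 sit at 0.01 and -0.38 on the y axis.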

How the data were processed

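Retinal RNA from 31 mice in 8 groups was measured on expression arrays, with 5 ug of total RNA labelled per mouse per the labels' protocols. The deposited values are on a log2 scale. The submitters' processing notes name RMA for them, and its version is not given in the sources used here. RMA sets all arrays on 1 distribution, so a shift common to most genes cannot be seen. Replicates are separate mice. The arrays hold 45101 probe sets: 9211 without a gene symbol, 932 with more than 1 and 34958 with exactly 1. Without controls, 34945 of the last kind remained, for 18193 genes. Where a gene had several (9010 genes), the brightest one on average across the 31 arrays was used. Symbols are those of the platform annotation and can be old.

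A limma model with 1 mean per group was fitted to all 31 arrays, with eBayes and a trended prior variance (R 4.3.3, limma 3.58.1, and the data.table package, 1.17.8), and p-values were adjusted by Benjamini and Hochberg over all genes. Figures and promoter windows were made with Python 3.11.15, numpy 2.4.6, pandas 2.3.3 and matplotlib 3.10.9. Intervals are at 95%. The scripts were checked on simulated data.

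The genes named are Rorb, Nrl, the largest called differences each way (10 clear of the ends of the scale, 5 at an end), the largest called members of each list, a set of photoreceptor genes whatever their result, the 3 largest age differences each way and the 5 genes most like Nrl. Unnamed or sex-linked genes were left out. Other list members with values below the threshold were chosen as examples after their values were seen. The members and lists were chosen with earlier results of these data known. Alternatives covered scaling, probe set choice, a filter on dim genes, the fold requirement, the prior variance, array weights, covariates for sex-linked genes and for pigment epithelium and lens, a replicate block, single-age fits, the ceiling margin and each mouse left out. Some genes of the lists are not analysed here.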

Additional observations from a re-analysis of the deposited data

Results flagged for a closer look

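Single mice stood apart from the other 3 of their group in 6 of 220 groups of gene values, by a gap test that chance passes in about 1 of 20 groups. Transgenic Rorb-/- replicate 1 had 8.91 for Hspb6 against 8.29 to 8.37 in the others, and 11.85 for Guca1a against 10.82 to 10.91. Pax7 was 4.94 in transgenic Rorb-/- replicate 2 against 5.35 to 5.43, and 3.62 in +/+ replicate 3 against 3.78 to 3.80. Transgenic +/+ replicate 2 had 8.96 for Opn1sw against 4.80 to 5.18, and 4.69 for Pik3ap1 against 4.32 to 4.36.

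Of the 13 genes whose interaction differed between P28 and P14 by a test of the difference itself (limma, adjusted over all genes), the 3 named with the largest difference in each direction are given here. It was higher at P28 for Ntrk3, the neurotrophin-3 receptor gene, by 1.26 ± 0.23 (adjusted p = 0.0312), for Plin3, a lipid droplet coat gene, by 1.02 ± 0.20 (adjusted p = 0.0454), and for Nrn1l, a neuritin-like gene, by 0.85 ± 0.14 (adjusted p = 0.00548). It was lower at P28 for Tph1, at -2.87 ± 0.46 (adjusted p = 0.00548), for Myocd, a coactivator gene of smooth muscle, at -2.74 ± 0.53 (adjusted p = 0.0374), and for Pik3ap1, a phosphoinositide kinase adaptor gene, at -1.99 ± 0.38 (adjusted p = 0.0322). With 1 mouse left out, of 31 such fits, the call was lost in 7 for Ntrk3, 21 for Plin3, 22 for Myocd, 12 for Pik3ap1 and 0 for Nrn1l and Tph1. With the mean of all probe sets Ntrk3 gave 0.5 (adjusted p = 0.415) and Myocd -1.82 (adjusted p = 0.115). Of these genes Nrn1l alone passed for the P14 interaction, at -0.78 ± 0.10 (adjusted p = 6.18e-06), and it gave 0.07 ± 0.10 at P28.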

How the results depend on the processing

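Of the 55 genes followed across settings, 41 were called for the P14 interaction, 30 kept the call under every alternative run and 32 with each mouse left out, and no called gene reversed. P14 counts (26 positive, 68 negative) were 40 positive with the P14 arrays alone, and 72 and 196 with no fold requirement. P28 counts (42 and 131) were 537 and 459 with no fold requirement, 72 and 233 with array weights, and 26 positive with the P28 arrays alone. The 13 age differences were 7 with the mean of all probe sets and 356 with array weights. With the replicate block they were 31, and the P14 counts under the block were 29 and 73. Deviations of same-numbered mice correlated over 0.1 in 17 of 24 pairs of P14 groups (range -0.0188 to 0.294). The labels give no shared source for a number and not every pair passed 0.1, so pairing is not settled and the block was kept as an alternative. With each mouse left out the counts ran from 21 to 33 and from 63 to 91 at P14, from 31 to 75 and from 109 to 208 at P28, and from 4 to 184 for age. The Opn1sw interaction turned to -1.1 with the mean of all probe sets, to -0.02 with array weights, to -0.26, -0.13 and -0.22 without transgenic +/+ replicate 1, 3 or 4, and to -0.09 without transgenic Rorb-/- replicate 2, and reached 1.12 without transgenic +/+ replicate 2. Arr3 turned to -1.51 without probe sets of shared sequence, Opn1mw to 0.01 without transgenic +/+ replicate 2 (lowest -0.54 without replicate 3), and Myocd at P14 to 0.1 without transgenic Rorb-/- replicate 4 (lowest -0.37 without replicate 2). The causes were not tested. Saturation near 12.62 and background near 3.98 limit what can be measured, and 4 mice per group limit the precision.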

Other observations

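Of 10092 probe sets with no gene symbol or several, 9 had a positive and 10 a negative P14 interaction of at least 2-fold.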
